A study of Mus musculus with 3 samples.

Results

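The genes of the actin cytoskeleton described here are 50 genes that encode actin itself and the proteins that store, nucleate, extend, cap, sever, bundle, contract and anchor its filaments. They were taken by symbol from a list of 50, and each matched a gene of the annotation, which holds 55536 genes in the deposited gene tables and 22015 protein-coding genes of the nuclear genome among them. The symbol Myl12b belongs to a pair of identifiers, and the more abundant one stands for the gene. By role, the members are 2 actins, 5 genes of monomer binding and turnover, 8 genes of the Arp2/3 complex, 7 nucleation and elongation factors, 5 capping and severing genes, 3 coronins, 6 crosslinkers and scaffolds, 4 genes of non-muscle myosin II, 3 adhesion linkers, 3 ERM proteins, 2 MARCKS proteins and 2 small GTPases.

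Actin exists as single subunits (monomers) and as filaments, and a moving cell adds subunits at one end of a filament while it takes filaments apart elsewhere. The Arp2/3 complex starts new filaments as branches on old ones, formins and Ena/VASP proteins lengthen unbranched ones, and cofilin severs them. Macrophages use this machinery to crawl, to spread, to wrap prey in phagocytosis and to form adhesions called podosomes.

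The material was 1 group of cultures. Macrophages grown from the bone marrow of C57BL/6J mice had been given Lipid A, the part of endotoxin that Toll-like receptor 4 binds, at 100 ng/ml in a 12 h pretreatment; a washout of 12 h came next, and a second exposure at 100 ng/ml lasted 25 min. Total RNA from the cytosol, 1 µg at the start and depleted of ribosomal RNA, gave 3 libraries, biological replicates 1, 2 and 3, which share a donor entry in the labels. Spread between them may therefore be technical, no untreated or nuclear library was analysed here, and no comparison of treatments or test was made.

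Depth and purity of the libraries bear on what follows. Replicates 1, 2 and 3 held 55409751, 21258877 and 45624639 expected counts on annotated genes, of which the members took 1751650, 786677 and 1471076. The floor, 3 counts, equals 0.0626, 0.153 and 0.0740 CPM of protein-coding counts and covers counting error only. All 12 macrophage markers reached 1 TPM (transcripts per 1000000, a level per length) in each library, led by Lyz2, Fcer1g and Cd68 at 3737 ± 895, 1699 ± 245 and 814 ± 140 TPM (SD, n = 3). None of 12 smooth muscle and fibroblast, 6 T cell, 5 B cell, 6 neutrophil and 5 erythroid markers did, and the 12 smooth muscle and fibroblast markers summed to between 0.48 and 1.01 TPM per library. Of 5 platelet and megakaryocyte markers, Pf4 alone did, at 92.4 ± 15.3 TPM. Protein-coding genes held 29.6%, 40.4% and 34.8% of all TPM in replicates 1, 2 and 3. The same share of protein-coding TPM is therefore a higher TPM in replicate 2. Of the 50 members, 41 had their highest TPM there, and the matching share of all protein-coding genes is not given. Of 6 nuclear noncoding RNAs, 4 reached 1 TPM in each library, led by Rn7sk, Malat1 and Neat1. Malat1 had 8329, 3480 and 1444 protein-coding CPM in replicates 1, 2 and 3, Neat1 924, 212 and 152, Xist 803, 42.3 and 23.1 and Kcnq1ot1 93.5, 3.37 and 2.66, all highest in replicate 1, and the part of such RNA in the members' values was not tested.

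All 50 members were expressed in every library, most of them far above the typical gene. Each of the 50 reached 1 TPM in replicates 1, 2 and 3, a level that 42.1% of nuclear protein-coding genes reached (9275 genes, called detected genes below). At least 10 TPM in every library was reached by 46 of the 50 members and by 18.7% of nuclear protein-coding genes. The members were chosen with earlier results of these data known, and the part of that choice in these contrasts was not tested. Of 37 paralogs outside the members, 15 had 1 TPM in every library. Among the detected genes ranked by mean TPM, 36 members stood in the top 10%, which begins at 60.6 TPM, and 7 stood in the top 1%. The median over members was 97.4, 112 and 121 TPM in replicates 1, 2 and 3 (110.1 ± 11.8 TPM, SD, n = 3), and the median over detected genes was 9.90 ± 1.46 TPM. Levels in bulk RNA do not separate RNA per cell from the number of cells of a type.

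A few genes carried most of this mass. The 50 members held 4.82%, 5.36% and 4.67% of protein-coding TPM in replicates 1, 2 and 3, and Actb and Tmsb4x made up 54.4% ± 3.75 of the members' sum (SD, n = 3). The sum of the 2 actins was 3732, 7451 and 4440 TPM, and that of the 8 genes of the Arp2/3 complex 1388, 1846 and 1611 TPM. At the other end, 4 members averaged under 10 TPM: the crosslinker genes Actn1 and Fscn1, the ERM gene Ezr and the adhesion gene Vcl.

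**Figure D1:**
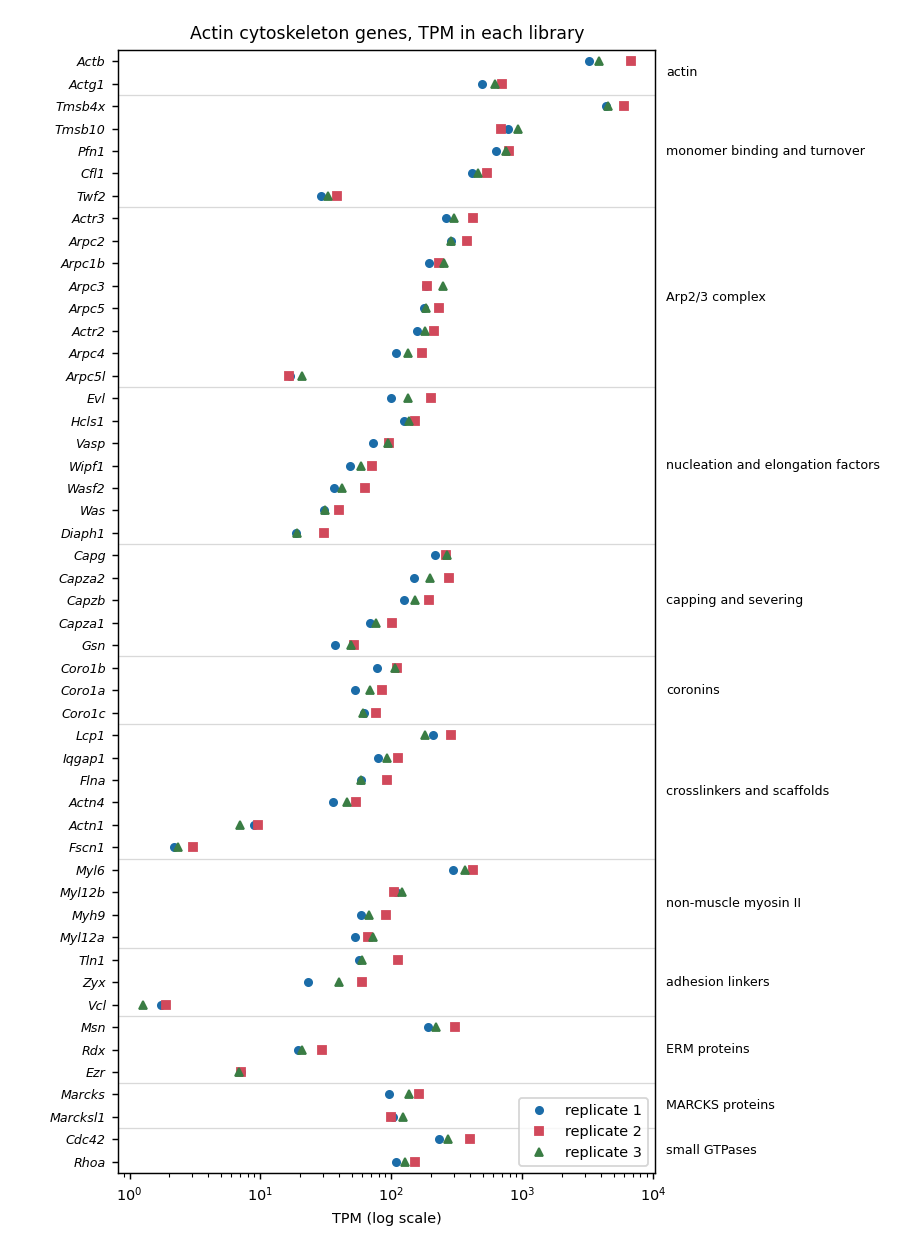
TPM on a log scale (x) of the 50 members (y, grouped by role and ordered by mean), with 1 point for each of the 3 libraries. Actb and Tmsb4x lie above 3000 TPM in every library and Vcl and Fscn1 below 4 TPM, while the libraries of any 1 gene lie within 2.60-fold of each other.

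Actin message came chiefly from Actb, the cytoplasmic beta-actin gene on chr5:142903115-142906754 (minus strand, mm10). It had 3241, 6746 and 3826 TPM in replicates 1, 2 and 3, and Actg1, the cytoplasmic gamma-actin gene on chr11:120345690-120348542 (minus strand), had 491, 705 and 614 TPM. Actb exceeded Actg1 by 6.60-, 9.56- and 6.23-fold in replicates 1, 2 and 3 and held 87.8% ± 2.35 of their joint TPM (SD, n = 3). Both genes encode 375 amino acids and their proteins differ at 4 positions, while 88.6% of their 1125 coding bases are the same. The first 60 coding bases of their leading transcripts are shown because reads within the coding region are told apart only by such differences, with the 9 differing bases in capitals.
Actb-201: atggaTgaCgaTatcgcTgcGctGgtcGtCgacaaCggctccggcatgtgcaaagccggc
Actg1-202: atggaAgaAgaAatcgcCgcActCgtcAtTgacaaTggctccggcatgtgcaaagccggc
The 4 muscle and gut actin genes were nearly silent. Acta2, the smooth muscle actin gene, had 0.16, 0.29 and 0.14 TPM, and the other 3 had no counts in any library.

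Among messages of the thymosin genes, that of Tmsb4x was the more abundant. Tmsb4x encodes thymosin beta 4, a small peptide that binds single actin subunits and keeps them from joining filaments. This X-linked gene (chrX:167207093-167209315, minus strand) had 4357, 5943 and 4504 TPM in replicates 1, 2 and 3. Its relative Tmsb10 (chr6:72957347-72958748, minus strand) had 776, 686 and 928 TPM and was lowest in replicate 2. In protein-coding CPM, which takes out the larger protein-coding share of TPM in replicate 2, Tmsb4x had 4482, 4300.3 and 4080.4, and Tmsb10 was again lowest in replicate 2. Tmsb4x held 84.9%, 89.7% and 82.9% of their joint TPM. Their proteins of 44 amino acids differ at 11 positions, and 69.7% of the 132 coding bases are the same. The first 60 coding bases, with the 15 differences in capitals, show that the pair can be told apart more easily than the actins.
Tmsb4x-201: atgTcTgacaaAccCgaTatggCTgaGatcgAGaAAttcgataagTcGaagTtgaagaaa
Tmsb10-203: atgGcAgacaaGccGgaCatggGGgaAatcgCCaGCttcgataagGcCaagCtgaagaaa
Pfn1, encoding profilin, which recharges actin subunits with ATP and hands them to growing ends, had 724 ± 85.5 TPM. Cfl1, encoding the severing protein cofilin, had 470 ± 64.8 TPM (SD, n = 3). Twf2, encoding a twinfilin that binds monomers and filament ends, was far lower with 29.1, 38.2 and 32.6 TPM. Of paralogs outside the list, the highest were the depolymerizing factor gene Dstn (52.3 ± 12.8 TPM), Twf1 (40.1 ± 11.9 TPM) and the coronin gene Coro7 (29.2 ± 0.255 TPM), and 15 of 37 such paralogs had 1 TPM in every library.

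The Arp2/3 complex is built from 7 kinds of subunit, and its 8 genes among the members lay close together except for Arpc5l. Outside the members, the paralogs Arpc1a and Actr3b were low too. In replicates 1, 2 and 3 they had 18.6, 20.7 and 22.95 TPM, and 0.13, 0 and 0.24 TPM. Actr3, encoding the actin-related subunit Arp3, had 262, 418 and 302 TPM in replicates 1, 2 and 3, and Actr2, encoding Arp2, had 157, 211 and 181 TPM. Arpc2 and Arpc4, whose proteins form the core that holds the old filament, had 284, 377 and 286 TPM, and 109, 172 and 134 TPM. Actr3 and Arpc2 averaged 328 ± 81.0 and 316 ± 53.3 TPM (SD, n = 3) with ranges that overlap, and Arpc4 was below both in every library at 138 ± 31.4 TPM on average.

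The remaining members of the complex, Arpc5l aside, fell between these. Arpc1b, the subunit gene whose loss causes an immune deficiency in people, had 195, 232 and 252 TPM. Arpc3 had 186, 188 and 249.9 TPM, highest in replicate 3. Arpc5 had 178, 232 and 184 TPM, while Arpc5l, which encodes the alternative form of the same subunit, had 16.9, 16.6 and 20.7 TPM. Arpc5 thus held 91.5% ± 1.72 of the pair's TPM (SD, n = 3). Every library of Arpc5l lay below every library of the other members of the complex, but its range overlapped that of Arpc1a. Without Arpc5l, the highest member of the complex was 2.60-, 2.44- and 2.25-fold above the lowest in replicates 1, 2 and 3. Arpc5l overlaps the ribosomal protein gene Rpl35 in the annotation, and how reads there were assigned was not tested.

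**Figure D2:**
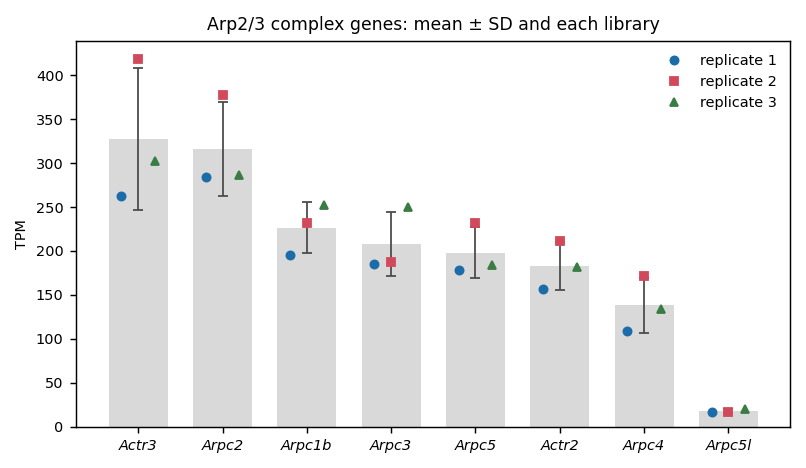
TPM (y) of the 8 Arp2/3 complex genes (x), with bars at the mean, error bars of 1 SD over 3 libraries and a point for each library. The 7 genes other than Arpc5l lie between 109 and 418 TPM, and Arpc5l lies between 16.6 and 20.7 TPM.

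Nucleation and elongation factors had a median level over genes of 59.5 TPM, and the Arp2/3 genes, which several of them activate, one of 203 TPM. Evl, an Ena/VASP gene, had the highest mean, with 98.9, 200.4 and 133 TPM, and its paralog Vasp had 72.3, 96.2 and 94.4 TPM. Evl held 61.3% ± 5.45 of their joint TPM, but 41.8% of their joint counts, and its most abundant transcript has 569 bases. Hcls1, a blood-cell relative of cortactin that stabilizes branches, had 125, 151 and 137 TPM, above Evl in replicates 1 and 3, so the lead of Evl rests on replicate 2. Wipf1, the partner that protects WASP, averaged 59.5 ± 11.7 TPM, and Wasf2, the WAVE protein of lamellipodia, 47.1 ± 13.8 TPM (SD, n = 3). Was, encoding WASP, and the formin gene Diaph1 averaged 33.9 ± 5.19 and 22.8 ± 6.79 TPM. These genes ran from 22.8 to 144 TPM on average, and 3 of the 7 stood in the top 10% of detected genes.

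Among genes that cap and sever filaments, Capg had the highest mean TPM, with 215, 261 and 264 TPM, though Capza2 was above it in replicate 2. It encodes a gelsolin relative that caps filament ends in macrophages, and Gsn, gelsolin itself, averaged 46.2 ± 7.81 TPM (SD, n = 3). The heterodimeric capping protein needs an alpha and a beta subunit. Its alpha genes Capza2 and Capza1 had 149, 275 and 199 TPM, and 68.2, 102 and 76.6 TPM, and the beta gene Capzb averaged 156 ± 34.7 TPM. Capza2 exceeded Capza1 in every library, with 71.2% ± 2.32 of their joint TPM, and the alpha genes together exceeded Capzb by 1.75-, 1.96- and 1.83-fold in replicates 1, 2 and 3.

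Coronins bind filaments and act on branches and cofilin. Coro1b led in every library with 77.6, 111 and 106 TPM. Coro1a, the coronin typical of blood cells, had 52.4, 84.9 and 69.2 TPM, and Coro1c had 62.3, 76.5 and 61.2 TPM. Coro1a was below Coro1c in replicate 1 and above it in replicates 2 and 3, so their order does not stand out from the spread between libraries. By counts, which are not per length, Coro1b held 32.2% of the trio, against 42.0% ± 2.46 of TPM.

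Crosslinkers and scaffolds were led by Lcp1, encoding L-plastin, the filament bundler of blood cells, with 208, 286 and 180 TPM. Iqgap1, a scaffold for Cdc42, averaged 94.3 ± 16.5 TPM. Flna, encoding filamin A, which links crossing filaments, had 58.9, 92.5 and 58.2 TPM. The alpha-actinin genes, whose proteins tie filaments side by side, were unequal: Actn4 had 35.8, 53.7 and 45.7 TPM and Actn1 had 8.96, 9.62 and 6.96 TPM, so that Actn4 held 83.8% ± 3.50 of the pair. Fscn1, encoding fascin, the bundler of dendritic cell and filopodial protrusions, was near the detection level with 2.20, 3.04 and 2.36 TPM.

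Non-muscle myosin II, the motor that contracts actin bundles, is made of heavy chains, essential light chains and regulatory light chains. Myl6, an essential light chain gene, had 297, 418 and 363 TPM, and the heavy chain gene Myh9 averaged 72.2 ± 16.7 TPM (SD, n = 3). The regulatory light chain genes Myl12b and Myl12a had 108, 105 and 120 TPM, and 52.8, 66.1 and 72.4 TPM. These 2 values are uncertain, because the genes are 96.5% identical over 516 coding bases and their proteins differ at 4 of 172 positions. The second Myl12b identifier (chr17:70974119-71002208, minus strand) held a further 48.0 ± 5.24 TPM, and near-identical copies, each other included, took 65.6% of the joint counts of Myl12a and 49.5% of those of Myl12b. Myl12b-202, annotated as retaining an intron, made up 48.9, 34.5 and 54.5 TPM of Myl12b. The lead of Myl12b over Myl12a counts this form and was not tested without it.

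Adhesion linkers join filaments to integrins, the receptors by which cells grip their surroundings. Tln1, encoding talin, had 56.6, 113 and 59.7 TPM, and Zyx, encoding zyxin, had 22.9, 59.7 and 39.9 TPM. Vcl, encoding vinculin, was the lowest member of all, with 1.75, 1.91 and 1.26 TPM and, per protein-coding CPM, 16.5, 13.1 and 10.2. Per length, talin message was 32.3-, 59.0- and 47.4-fold more abundant than vinculin message in replicates 1, 2 and 3, although Vcl stayed above the floor of 3 counts in each. In the read-based table Vcl had 1.35, 1.53 and 0.275 TPM, and Fscn1 had 0.521 TPM in replicate 3, and these were the 2 members under 1 TPM in a library there.

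The ERM proteins tie filaments to the plasma membrane, and here Msn held most of their message. Msn, encoding moesin, had 189, 306 and 219 TPM, Rdx, encoding radixin, 19.4, 29.4 and 20.6 TPM, and Ezr, encoding ezrin, 7.11, 7.11 and 6.91 TPM. Moesin message made up 88.6% ± 0.849 of the trio, radixin 8.65% ± 0.329 and ezrin 2.73% ± 0.617 (SD, n = 3). The order Msn, Rdx, Ezr was kept in all 3 libraries with no overlap between genes.

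MARCKS proteins hold phosphoinositides and filaments at the membrane. Marcks had 95.9, 163 and 136 TPM and Marcksl1 had 103, 99.2 and 122 TPM. In these alignment-based TPM neither led in every library, with Marcksl1 at 51.7% of the joint TPM in replicate 1, 37.8% in replicate 2 and 47.2% in replicate 3. In the read-based table Marcks led in each, at 50.2%, 63.5% and 55.2%, and it held 76.5% of their joint counts, which are not per length. The small GTPases switch the machinery on. Cdc42, which acts on WASP, had 232, 397 and 269 TPM, and Rhoa, which acts on formins and myosin, averaged 129 ± 21.7 TPM. Rhoa overlaps an annotated gene with a mean of 118 TPM, and how reads there were assigned was not tested.

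**Figure D3:**
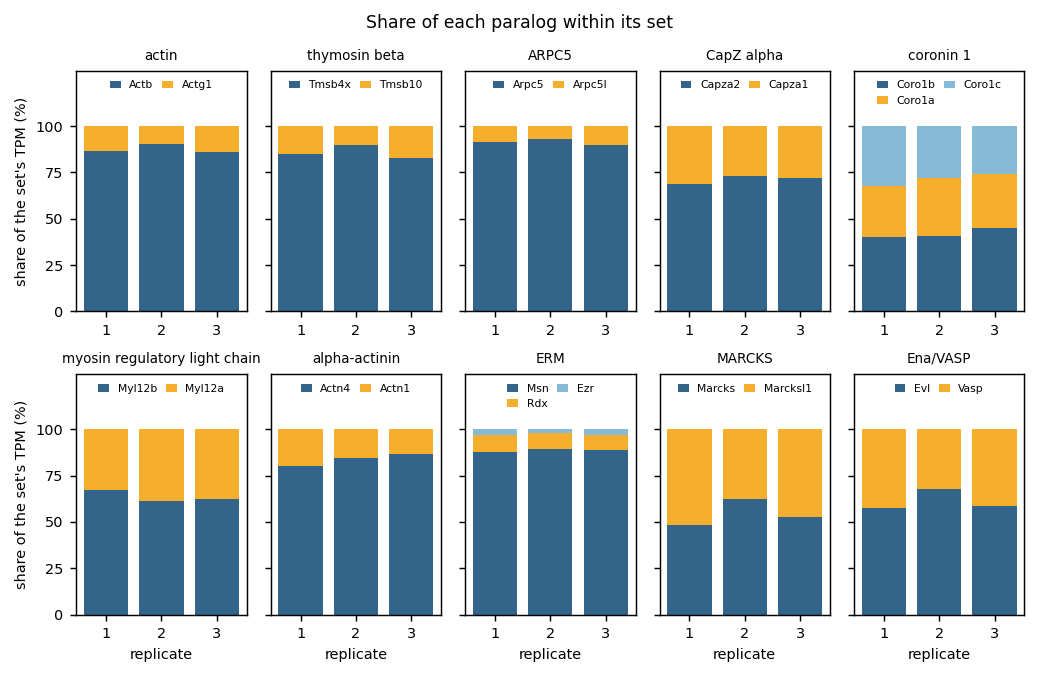
Share of the set's TPM (y, percent) held by each paralog in each of the 3 libraries (x) for 10 sets of members. One paralog leads in all libraries of 9 sets, and in the MARCKS set the lead in alignment-based TPM changes between replicate 1 (Marcksl1 51.7%) and replicates 2 and 3, while Marcks leads in every library of the read-based table. The lead of Myl12b counts its retained-intron transcript Myl12b-202.

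Of 59 regulators outside the members, 55 reached 1 TPM in each of the 3 libraries, and their median over all 59 was 27.5 ± 6.09 TPM (SD, n = 3). The highest were Arhgdib, a holder of inactive small GTPases, at 309 ± 57.4 TPM, the blood-cell GTPase gene Rac2 at 289 ± 130 TPM and Arhgdia, a relative of Arhgdib, at 285 ± 80.1 TPM. Their ranges over libraries overlapped that of Cdc42.

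The coding ends of Cdc42 and Capzb show which protein form these macrophages made message for. Cdc42 (chr4:137319696-137357720, minus strand) ends in either of a pair of last exons, one used widely and one known from brain. Cdc42-202, with the widely used end, held 98.7%, 99.6% and 99.2% of the gene's TPM, and Cdc42-201 held 0.842% ± 0.461 (SD, n = 3). The first 487 coding bases of both are the same. Their last coding bases, without the stop codon, are shown with capitals from the first base that differs to the end.
Cdc42-202: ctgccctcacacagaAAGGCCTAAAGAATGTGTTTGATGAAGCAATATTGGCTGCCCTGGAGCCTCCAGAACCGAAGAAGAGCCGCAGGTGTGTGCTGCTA
Cdc42-201: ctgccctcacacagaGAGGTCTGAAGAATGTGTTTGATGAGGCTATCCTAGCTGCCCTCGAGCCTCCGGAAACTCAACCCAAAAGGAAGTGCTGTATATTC
Capzb (chr4:139192899-139291818, plus strand) likewise has a non-muscle end and a muscle end. Capzb-204, the non-muscle form, held 96.6%, 95.6% and 96.6% of the gene's TPM, and Capzb-203, the muscle form, held 1.74% ± 0.0129. The first 731 coding bases are the same, and capitals again run from the first base that differs.
Capzb-204: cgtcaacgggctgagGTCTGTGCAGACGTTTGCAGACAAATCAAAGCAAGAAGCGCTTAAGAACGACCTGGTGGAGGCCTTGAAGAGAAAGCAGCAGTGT
Capzb-203: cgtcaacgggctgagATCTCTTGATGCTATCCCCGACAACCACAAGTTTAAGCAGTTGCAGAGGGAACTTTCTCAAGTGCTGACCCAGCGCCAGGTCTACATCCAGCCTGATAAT
In the read-based table the 2 leading shares were 98.9% for Cdc42-202 and 84.4% for Capzb-204, both again far above the other end.

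Most members used mainly 1 transcript. Of 342 annotated transcripts of the members, the leading one of each gene was protein-coding in 50 of 50 and was the same in the alignment-based and the read-based tables in 50 of 50. It held a median of 91.3% of the gene's TPM, at least 90% in 27 members and under 60% in 8. The 8 were Actg1, Arpc4, Diaph1, Evl, Fscn1, Myl12b, Wipf1 and Zyx. Some of them changed between libraries: Diaph1-205 had 44.2%, 29.1% and 74.0% of its gene in replicates 1, 2 and 3, Arpc4-203 had 41.7%, 76.9% and 43.9%, and Actg1-202 had 65.2%, 47.4% and 67.1%. Fscn1-201 had 53.6%, 28.3% and 72.9%, and Zyx-207 had 55.1%, 45.6% and 67.1%. Evl-207 had 42.1%, 61.8% and 43.0%, Wipf1-203 had 42.3%, 53.8% and 47.7%, and Myl12b-204 had 47.0%, 61.4% and 46.5%. In all 8, replicate 2 held either the highest or the lowest of the 3 shares. Neither this count nor the counts of 50, 27 and 8 members above are set against detected genes.

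Annotated retained-intron transcripts held a small part of the members' TPM, and other unspliced RNA was not measured. Transcripts annotated as retaining an intron held 1.28%, 0.925% and 0.755% of the members' TPM in replicates 1, 2 and 3, and 4.46%, 4.08% and 3.18% of that of all detected genes. These shares are weighted by TPM, and Actb and Tmsb4x made up 54.4% of the members' sum. The part of these genes in the contrast was not tested. Myl12b-202, a retained-intron transcript of 369 bases, held 45.1%, 32.7% and 45.6% of Myl12b. A retained-intron transcript held at least 5% of the gene's mean TPM in 3 further members. Actr3-204 had 8.97%, 13.2% and 1.80%, Arpc1b-202 had 5.89%, 8.55% and 2.58%, and Coro1a-206 had 1.54%, 11.4% and 2.50% of their genes in replicates 1, 2 and 3, each highest in replicate 2.

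Variation between libraries was small in counts scaled to protein-coding genes. In protein-coding CPM (a gene's expected counts as a part of those of all nuclear protein-coding genes, times 1000000), the highest library of a member was a median of 1.17-fold above the lowest, and for detected genes 1.26-fold. A range over 1.5-fold occurred in 4 members, Arpc3, Tmsb10, Vcl and Zyx, and in 17.2% of detected genes. Members were highest in replicates 1, 2 and 3 in 15, 17 and 18 cases, and the matching shares of detected genes are not given. The median biological coefficient of variation, the spread beyond counting noise that edgeR estimates, was 0.154 over members (range 0.120 to 0.216) and 0.166 over protein-coding genes. With replicate 1, 2 or 3 left out, it was 0.148, 0.173 and 0.157 over members. Over protein-coding genes it was then 0.165, 0.174 and 0.165, so the difference nearly vanished without replicate 2. With 3 libraries these estimates are pulled strongly to a common trend, so no gene's own value is given.

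Set against the mean of the other libraries in protein-coding CPM, each library was close to centre for the members. The median log2 ratio over the 50 was 0.01, 0.00 and -0.01 in replicates 1, 2 and 3, and over detected genes 0.09, -0.02 and -0.09. With the TMM scaling factors of edgeR, the median over members was -0.11 in replicate 1 and 0.09 in replicate 3. Over detected genes it was then -0.02 and 0.01. No member was over 1.5-fold above the others in replicate 1, where 3.62% of detected genes were, and 1 member, Zyx, was over 1.5-fold below, where 1.29% were. In replicate 2, 0 members were above (0.873% of detected genes) and 2, Tmsb10 and Arpc3, were below (4.99%). In replicate 3, 0 were above (2.34%) and 0 below (3.0%). With counts this low, the shares of members past 1.5-fold lie near those of detected genes.

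The 5 members with the largest ranges were Arpc3, Tmsb10, Vcl, Zyx and Actn1. Arpc3 had 236, 156 and 278 protein-coding CPM in replicates 1, 2 and 3, and Tmsb10 had 510.3, 317 and 548, both lowest in replicate 2. Zyx had 80.5, 122 and 127, lowest in replicate 1. Vcl (16.5, 13.1 and 10.2) and Actn1 (57.7, 45.8 and 39.2) were both highest in replicate 1 and lowest in replicate 3. The read-based counts gave log2 ratios of -0.68 for Arpc3 and -0.72 for Tmsb10 in replicate 2 and -0.65 for Zyx in replicate 1, so these deviations stood in both quantifications.

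Transcript length moved with these deviations. Across the 50 members, Spearman's correlation coefficient between the length of the leading transcript and the log2 ratio of a library was -0.13, 0.48 and -0.54 in replicates 1, 2 and 3, and over detected genes -0.05, 0.30 and -0.25. The points share the same 3 libraries and each ratio uses the others as its base, and genes are not independent replicates, so these are descriptions. Of 7 members with a leading transcript under 1000 bases, 5 had a negative ratio in replicate 2, with a median over the 7 of -0.20. The 1040 detected genes of that length had a median of -0.21, and 71.3% of them had a negative ratio. Of 7 members of at least 5000 bases, 5 had a positive ratio, with a median of 0.27, and the 1452 detected genes of that length had 0.09. Of these 1452 genes, 32.6% had a negative ratio, so the members' counts by sign lay near those of detected genes. The part of length in the values of Tmsb10 (570 bases) and Arpc3 (899 bases) was not tested. In replicate 2, the ratios of Myl12a (883 bases), Pfn1 (861 bases) and Myl6 (665 bases) were -0.34, -0.20 and -0.05. Those of Evl (569 bases) and Tmsb4x (768 bases) were 0.10 and 0.01. Evl also has longer forms: Evl-206 (1487 bases) held 28.8% and Evl-204 (1955 bases) 14.8% of its mean TPM.

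**Figure D4:**
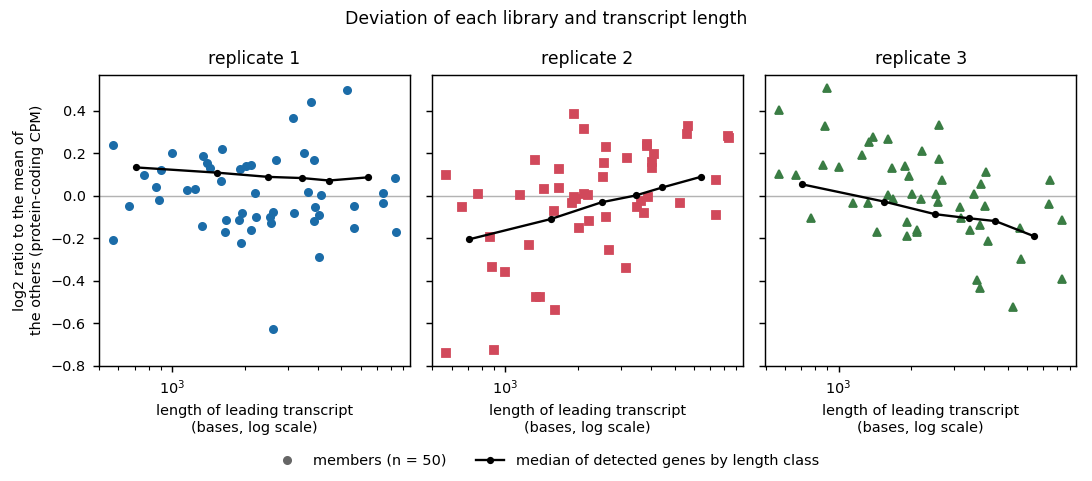
Log2 ratio of a library over the average of the remaining libraries in protein-coding CPM (y) against the length of the leading transcript in bases on a log scale (x), a panel for each library. Points are the 50 members and the black line joins medians of detected genes in 6 length classes, which run upward in replicate 2 (-0.21 to 0.09) and downward in replicate 3 (0.05 to -0.19).

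Some annotated transcripts, most of them short, appeared in replicate 2 alone in the alignment-based tables. A transcript with at least 10% of its gene's TPM in 1 library and under 1% in the others was found for 0 members in replicate 1 (2.06% of detected genes), 7 in replicate 2 (5.5%) and 0 in replicate 3 (1.85%). The 7 were Tln1-206, Arpc3-201, Twf2-204, Zyx-208, Fscn1-202, Actb-202 and Iqgap1-206, at 11.2% to 29.9% of their genes in replicate 2. They are 536 to 1508 bases long, and the longest, Twf2-204, is close in length to its gene's leading transcript of 1596 bases. Actb-202 had 1.81, 1030.3 and 2.68 TPM in replicates 1, 2 and 3, the largest amount of any of them.

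The read-based table spread these forms over more libraries. It gave Tln1-206 27.4%, 39.9% and 21.4% and Actb-202 7.79%, 26.1% and 1.57% of their genes in replicates 1, 2 and 3, and by the same limits it found 1 member, Actn4, with a form of replicate 2 alone. Left out of the alignment-based sums, the forms changed the apparent spread of their genes. Actb had then 3239, 5715 and 3823 TPM, a range of 1.76-fold in place of 2.08-fold, and Tln1 had 56.5, 78.9 and 59.7 TPM, a range of 1.40-fold in place of 1.99-fold. Arpc3 went the other way, with 185, 132 and 249.6 TPM and a range of 1.88-fold in place of 1.35-fold. The level of Actb in replicate 2 depends on the scale in the same manner: its counts gave 10329, 13586 and 10475 protein-coding CPM, a range of 1.32-fold.

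**Figure D5:**
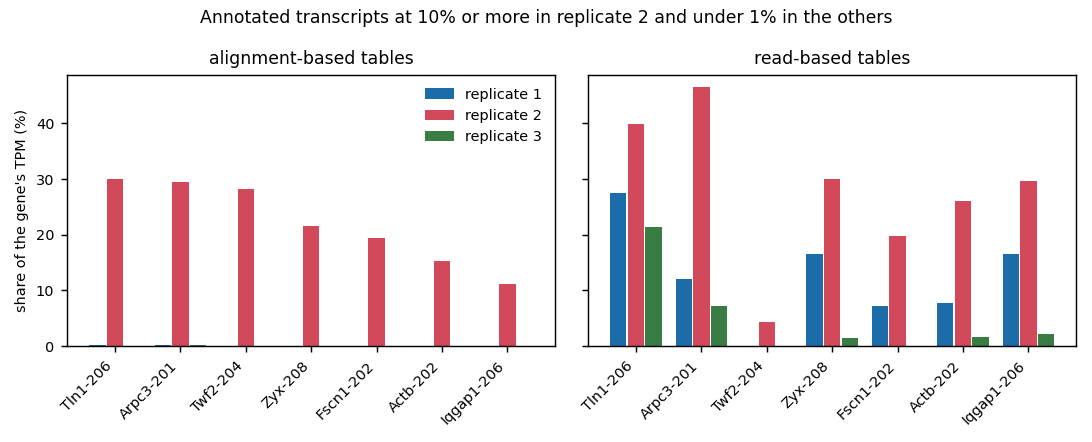
Share of the gene's TPM (y, percent) of 7 transcripts (x) in the 3 libraries, from the alignment-based tables (left) and the read-based tables (right). On the left each transcript has a bar in replicate 2 alone, from 11.2% to 29.9%, and on the right 6 of the 7 have bars in replicate 1 as well.

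The 2 quantifications otherwise gave similar relative levels. The read-based TPM of members differed from the alignment-based TPM by a median of -1.07 on the log2 scale, and after rescaling both to nuclear protein-coding genes the median absolute difference was 0.05 over members and 0.08 over detected genes. The 5 members with the largest unscaled differences were Flna (-1.30), Actg1 (-1.20), Evl (-1.17), Twf2 (-1.16) and Actr2 (-1.15). Flna had 35.8, 39.0 and 10.5 TPM in replicates 1, 2 and 3 of the read-based table, Actg1 302, 353 and 132, Evl 64.7, 99.0 and 28.2, Twf2 18.3, 19.2 and 7.27, and Actr2 99.8, 107 and 39.9. All 50 members were lowest in replicate 3 of that table, these 5 included, and the matching share of detected genes is not given. This order depends on the scale. In read-based protein-coding CPM, Actg1 had 1479, 1548 and 1634 and Evl 188, 214 and 219. Twf2 had 71.5, 69.3 and 71.8 and Actr2 969, 966 and 976, all highest in replicate 3. Flna had 755, 823 and 606, lowest there. After rescaling, Flna differed by -0.28 and the other 4 by -0.11 to -0.08, while the largest differences were those of Tln1 (0.29), Flna, Capza2 (0.28), Vcl (0.27) and Arpc1b (0.25).

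Near-identical copies touch few members. Annotated copies with 95% identity or more along 50% or more of the leading transcript exist for 8 members, 20 copies in all. Apart from Myl12a and Myl12b, the copies took the largest mean share over libraries of the joint counts in Actg1, at 1.12%, 1.70% and 1.54% in replicates 1, 2 and 3, followed by Capza1, at 1.55%, 0.925% and 1.58%. Another annotated gene overlaps 31 members, on the opposite strand for 26, and 14 of the 31 overlap a gene of at least 1 TPM. Whether the counting used strand is not given in the sources used here, so reads of such pairs cannot be told apart here.

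A CArG box, the site read by serum response factor, a regulator known for actin genes, was searched by its name's consensus on both strands in the 250 bases before the RefSeq start (build GRCm38.p6). Of 56 promoters of 44 members in the table, 4 held one (7.14%), and of all 32851 promoters 482 did (1.47%). The boxes, in capitals with up to 10 bases on each side, are shown with the levels of their genes.
Arpc4, chr6:113377863-113377882, plus strand: CCTAATTTGGtgcccaacct
Myl6, chr10:128493040-128493069, minus strand: gctcttacttCCTTATATGGgcaggaccta
Actg1, chr11:120348566-120348595, minus strand: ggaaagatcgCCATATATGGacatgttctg
Vcl, chr14:20929161-20929190, plus strand: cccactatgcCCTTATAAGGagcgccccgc
These genes averaged 138 ± 31.4, 360 ± 60.6, 603 ± 108 and 1.64 ± 0.339 TPM (SD, n = 3), so a box stood before genes of the top 1% and before the least abundant member, and none of the 4 genes reached the levels of Tmsb4x and Actb. A match describes letters in this window and is not a measured site, and no match says only that these letters were not found there.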

How the data were processed

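Total RNA-seq of 3 libraries of 1 group was analysed. Per the file headers, each library has a gene table and a transcript table with expected counts, which the authors did not normalize, and TPM, which they scaled per library. The same deposited transcript table has a percent column for the share of each transcript, and the deposited bounds of TPM were read as a score for inspection only. A further deposited table lists transcripts with estimated counts and TPM. Its values came from the reads and those of the other tables from a transcriptome alignment, per the deposited description files, which name build mm10 and GENCODE M21. Aligner, counting programs and strand use: not given in the sources used here.

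The members and gene lists were chosen with earlier results of these data known. Protein-coding CPM is relative to the expected counts of all nuclear protein-coding genes (log2 with an offset of 0.1). Shares within paralog sets used TPM. Values in every library are given for paralog-set and Arp2/3 members, the highest member of each role, the 5 with the largest range and the 5 whose TPM differed most between the tables, and outside the members means of the 3 highest genes of lists. The coding ends of Cdc42 and Capzb, the transcripts of replicate 2 alone and the retained-intron forms were chosen after their values were seen. So were Xist, Kcnq1ot1, Arpc1a, Actr3b, the longer Evl transcripts and the differences after rescaling. Other markers, by the same rule, averaged at most 0.893 TPM (Ighm). Dispersion came from edgeR 4.0.16 (R 4.3.3; expected counts rounded, intercept only, TMM, filterByExpr), tested on simulated data, with DESeq2 1.42.0 as an alternative. Copies were found with blastn 2.17.0 and paralogs aligned with biopython 1.88; the remaining work was done in Python 3.11.15 with scipy 1.17.1, pandas 2.3.3, numpy 2.4.6 and matplotlib 3.10.9. Coding sequences are those of the GENCODE M21 transcripts, promoters those of RefSeq. With 1 group there was no comparison of groups and no test.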

Additional observations from a re-analysis of the deposited data

How the results depend on the processing

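Of the alternatives to results that answer a question of the report, 82 kept the value within a spread set for that result (counts within 1.5 times). The other 16 moved it. For shares the spread was the SD between libraries. For the coefficient of variation it was 0.0127, the SD of the estimates with a library left out. For the median log2 ratios it was 0.121, which is not the SD of these medians between libraries. Leaving out 1 of 3 libraries cannot move a mean past the SD between libraries, so such settings say nothing of the stability of a mean. Marcks led its set in every library of the read-based table, unlike in TPM from the alignment. The members' share was 3.77% of protein-coding counts, against 4.95% of TPM, and 2.25% of TPM without Actb and Tmsb4x. The median log2 ratios, all near 0, took either sign with the scaling. With DESeq2's size factors the median log2 ratio was -0.14 in replicate 1 and 0.12 in replicate 3, where that over detected genes was -0.06 and 0.04, against 0.09 and -0.09 in protein-coding CPM. Members minus detected genes was -0.09 in replicate 1 and 0.08 in replicate 3 under either. The median coefficient of variation was 0.134 with DESeq2 and ranged from 0.148 to 0.173 with a library left out. By counts, which are not per length, the shares were 90.4% for Tmsb4x, 94.1% for Arpc5, 62.1% for Capza2, 32.2% for Coro1b, 59.5% for Myl12b, 76.5% for Marcks and 41.8% for Evl, so Evl no longer led its set and neither did Coro1b. Capza2 had 75.5% in the read-based table. The members with a range over 1.5-fold were 20 in TPM and also 20 without the forms of 1 library. They were 7 in TPM rescaled to protein-coding genes and 4 in protein-coding CPM. All of these settings but the first were chosen after seeing the data, and the share of detected genes is given for protein-coding CPM alone. Members in the top 10% numbered 32 to 41 over the alternatives, and 48 were detected in the read-based table. All 50 members entered without a filter on low values, so no setting without one was added to the one at 10 TPM. Low members such as Vcl and Fscn1 are the least precise, above all in replicate 2, the shallowest. No paired analysis was possible because there is 1 group.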
